A study of Mus musculus with 4 samples.

Results

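The Lgr5+ tuft marker- population of a mouse intestinal tumour was set against the 3 other populations sorted from the same kind of tumour. Its members are the genes whose level on its array was at least 1 log2 unit (2-fold) higher, or at least 1 log2 unit lower, than on every other array. On the higher side, the gene also had to be well above background by the scanner's flag. Of 22911 genes with a named probe, 386 met this rule, 189 of them higher and 197 lower on the Lgr5+ tuft marker- array.

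RNA from 4 sorted populations was measured on 4 one-colour Agilent arrays, 1 array per population. The sort gave Lgr5+ cells without the tuft marker (Lgr5+ tuft marker-) and with it (Lgr5+ tuft marker+), then Lgr5- cells with it (Lgr5- tuft marker+) and without it (Lgr5- tuft marker-). All 4 came from EpCAM+ epithelial tumour cells of mice with the genotype Lgr5CreERT2/+; Ctnnb1lox(ex3)/ox(ex3), as the labels spell it, taken 14 days after tamoxifen. The tuft marker was the surface receptor IL17RB, and 13 ng of total RNA was labelled for each array. The 4 groups share the tamoxifen, the Lgr5-driven Cre and the floxed beta-catenin alleles, and by the labels differ only in the sort. The number of animals, any pooling of them and the part of the intestine are not given in the sources used here. With 1 array per population there was no replicate, so nothing was tested between populations, and the number of arrays limits the precision. Errors given after ± are the scanner software's own for a spot, carried to the log2 difference, and leave out the variation between animals, sorts and labelling reactions. In bulk RNA, fewer cells of a type and less RNA per cell cannot be told apart.

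Cre expressed from the Lgr5 locus acts in the cycling stem cells at the base of the intestinal crypt. Removal of the floxed exon leaves a beta-catenin protein that escapes degradation, so that the Wnt pathway is held on and the crypt cells form tumours. Paneth and goblet cells, the secretory neighbours of these stem cells, make antimicrobial peptides and mucus. Enterocytes absorb nutrients and package dietary fat, and tuft cells sense the gut contents and release signals to immune cells.

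The sort markers followed the labels. Lgr5 had a level of -0.80 on the Lgr5+ tuft marker- array, where a level is the log2 signal minus that array's 75th percentile. The other levels were -0.78 on the Lgr5+ tuft marker+ array, -3.66 on the Lgr5- tuft marker+ array and -3.19 on the Lgr5- tuft marker- array. Lgr5 was thus alike on both Lgr5+ arrays, and it was not well above background on the Lgr5- tuft marker+ array. Il17rb, the gene of the tuft marker, had levels of -3.13 on the Lgr5+ tuft marker- array, -0.38 and 0.12 on the Lgr5+ and Lgr5- tuft marker+ arrays, and -3.71, not well above background, on the Lgr5- tuft marker- array. Epcam lay at 5.22 on the Lgr5+ tuft marker- array and between 4.52 and 5.56 on the others, and Ctnnb1 at 4.96 against 4.38 to 5.23.

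The Lgr5+ tuft marker- array had 68.9% of its spots well above background, against 60.2% to 69.0% on the others, and its 75th percentile was the brightest, at a signal of 176 against 131 to 145. Its floor, the lowest level among probes well above background, was -3.86, against -3.71 to -3.41. Values under the floor were raised to it. As the Lgr5+ tuft marker- floor was the lowest, a gene raised to it there counted as below every other array whatever its level. Where a difference was taken from such a value, or from a gene without a clear signal over background, it is the smallest size the data allow and is written "at least". Across the 14055 genes well above background on all 4 arrays, the Pearson correlation of the Lgr5+ tuft marker- array was 0.962 with the Lgr5- tuft marker- array, 0.934 with the Lgr5+ tuft marker+ array and 0.921 with the Lgr5- tuft marker+ array. These are across genes, which are not replicates, and the arrays share 1 slide and 1 scan.

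The 189 higher genes were 1.12% of the 16894 that could have been called, and the 197 lower genes were 1.38% of 14228. The same rule applied to each of the other arrays gave 1.74% higher and 1.06% lower for Lgr5+ tuft marker+ cells, 3.96% and 3.1% for Lgr5- tuft marker+ cells, and 1.43% and 1.36% for Lgr5- tuft marker- cells. The Lgr5+ tuft marker- array was therefore not richer in genes of its own than the others by this count. Taken a pair at a time, 8.08% of the genes measured were higher and 10.4% lower than on the Lgr5+ tuft marker+ array. Against the Lgr5- tuft marker+ array the shares were 7.94% higher and 11.4% lower, and against the Lgr5- tuft marker- array 6.5% higher and 5.25% lower.

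Most higher members were dim and most passed the threshold narrowly. Their median level was -1.24 on the Lgr5+ tuft marker- array, against -3.25 on the Lgr5+ tuft marker+ array, -3.01 on the Lgr5- tuft marker+ array and -3.23 on the Lgr5- tuft marker- array. The margin, which is the difference from the nearest other array, had a median of 1.32 and was under 1.5 for 131 of the 189. For 46 genes none of the other 3 arrays was above background, and 46 genes had a level above 0, that is, above the array's own 75th percentile. Restricted to genes well above background on all 4 arrays, a filter chosen after the data were seen, the higher genes fell to 82, or 0.583%, and the lower genes to 143, or 1.02%, of 14055. Under normexp background correction, whose offset shrinks the differences of dim probes, 11 of the 30 named higher members kept the call, namely Clps, Cyp2c68, Defa29, Gm17518, Klk1, Mmp7, Mptx1, Mptx2, Nupr1, Retnlb and Spink4. Of the 39 named lower members 12 kept it, namely Aif1, Apoe, Crtap, Fabp1, Fabp2, Itgb2, Lilrb4a, Maf, Rassf2, Sct, Tlr12 and Tyrobp. The lower members had median levels of -3.08 on the Lgr5+ tuft marker- array, and -0.42, -0.21 and -1.39 on the others in the same order, with a median margin of -1.34.

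**Figure D1:**
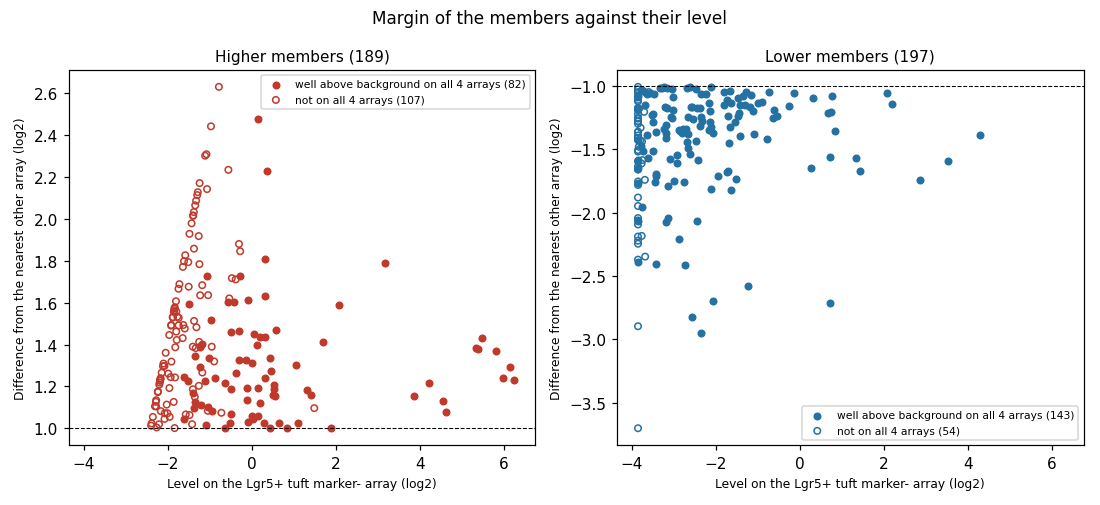
Difference of each member from the nearest other array (vertical axis, log2) against its level on the Lgr5+ tuft marker- array (horizontal axis, log2 signal minus the array's 75th percentile), for 189 higher genes on the left and 197 lower genes on the right. Filled points are well above background on all 4 arrays (82 higher, 143 lower), open points are not, and the dashed lines mark the threshold. Most open points on the left lie along a slope set by the floor of the nearest array, and those on the right pile up at the floor of the Lgr5+ tuft marker- array.

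The rule stands on the brightest probe of each gene, and other probes of the same gene gave a check that it did not use. For the higher members, 25 other probes of 23 genes were well above background, and 0 of them passed 1 log2 against every other array, while 9 lay on the same side of every array. Of these 25 probes, 17 were too dim to pass whatever the gene did, being under the level of -2.41 that lies 1 log2 above every other floor, which leaves 0 of 8. Of all other probes on the chip, 1.65% passed in that direction. The closest was Bmp3, a secreted member of the bone morphogenetic protein family, whose brightest probe had a margin of 1.43 and whose other probe had 0.75. For the lower members, 7 of 42 other probes of 35 genes passed, or 16.7%, against 1.4% of all other probes, and 24 lay on the same side. They belonged to Pla2g7, Il1b, Apoe, Anxa1, Lgals3, Prex1 and Dock8, which are expressed in macrophages or other white blood cells among other cell types. By the same count 42.7% of other probes passed for genes higher on the Lgr5- tuft marker+ array, 12.1% on the Lgr5+ tuft marker+ array and 14.7% on the Lgr5- tuft marker- array. The check on the higher side thus rests on few probes. The Paneth and goblet members described next had no further named probe, so their values rest on 1 probe each.

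**Figure D2:**
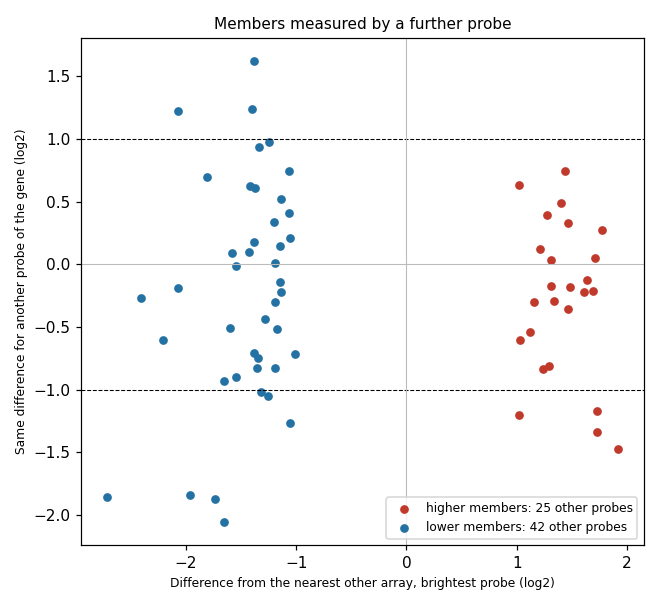
Difference from the nearest other array (log2, Lgr5+ tuft marker- minus the other) for the brightest probe of a member (horizontal axis) and for another probe of the same gene (vertical axis), with 25 probes of higher members on the right and 42 of lower members on the left. Dashed lines mark 1 log2 in either direction. No probe of a higher member reached the upper line, which 17 of the 25 were too dim to reach, and 7 probes of lower members reached the lower one.

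Paneth cell genes were the list with the most higher members. Of 25 Paneth genes listed, 16 had a probe, 6 of these were higher members and none was lower. Over all genes that could have been called, 1.12% were higher members. Above every other array lay 14 of the 16, against 18.5% of all genes well above background on 4 arrays. Here and for the lists below, list genes counted this way were above background on any array, a wider rule than for that share. The median difference of the list was 0.71 from the Lgr5+ tuft marker+ array, 2.54 from the Lgr5- tuft marker+ array and 1.74 from the Lgr5- tuft marker- array, where the medians over all genes lay between -0.04 and 0.02. For the members Mptx1, Mptx2 and Defa29 the nearest array was Lgr5+ tuft marker+, for Mmp7 it was Lgr5- tuft marker-, and for Nupr1 and Clps it was Lgr5- tuft marker+.

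Mptx2, a pentraxin of the gut mucosa, had a level of 6.16 on the Lgr5+ tuft marker- array, against 4.86 on the Lgr5+ tuft marker+, 1.41 on the Lgr5- tuft marker+ and 3.41 on the Lgr5- tuft marker- array, a margin of 1.29 ± 0.20. Its paralog Mptx1 had 2.08 on the Lgr5+ tuft marker- array, against 0.49, -2.50 and -0.91 on the others in that order, a margin of 1.59 ± 0.21. Both Mptx genes with a named probe were thus members, and both were lowest on the Lgr5- tuft marker+ array. Other pentraxin genes were not looked up. Mmp7 encodes matrilysin, the protease that activates alpha-defensins in mouse Paneth cells. It had a level of 4.55 on the Lgr5+ tuft marker- array, against 3.37, 1.89 and 3.41, a margin of 1.13 ± 0.20. Nupr1, a small stress-induced chromatin protein, had 4.21 on the Lgr5+ tuft marker- array, against 2.84, 2.99 and 2.91, so that the other 3 arrays lay within 0.15 of each other. Its call, like that of Clps below, was lost under quantile scaling and with the authors' table. Lyz1, the Paneth cell lysozyme and a non-member, had 5.81 on both Lgr5+ arrays, tuft marker- and tuft marker+, against 4.42 and 4.63 on the Lgr5- arrays.

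Alpha-defensins are the small antimicrobial peptides stored in Paneth cell granules. All 15 Defa genes with a named probe were well above background on the 4 arrays and lay above every other array on the Lgr5+ tuft marker- array, but only Defa29, Defa38, Defa39, Defa42 and Defa43 passed the threshold. Defa39 had 5.49 on the Lgr5+ tuft marker- array, against 4.06 on the Lgr5+ tuft marker+, 2.06 on the Lgr5- tuft marker+ and 2.65 on the Lgr5- tuft marker- array. Defa29 had 5.35, against 3.96, 1.88 and 2.59. The brightest of the family, Defa24, had 9.05, against 8.80, 6.95 and 7.74, and so differed from the nearest array by only 0.25. Over the 15 genes the median difference was 0.75 from the Lgr5+ tuft marker+ array, 3.43 from the Lgr5- tuft marker+ array and 2.51 from the Lgr5- tuft marker- array. Defa genes are near-identical in sequence, and a probe of one can read the transcripts of others, so these are not 15 separate observations. The family, like the kallikrein, Cyp2c, Apo and olfactory receptor families below, was picked after the values were seen.

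**Figure D3:**
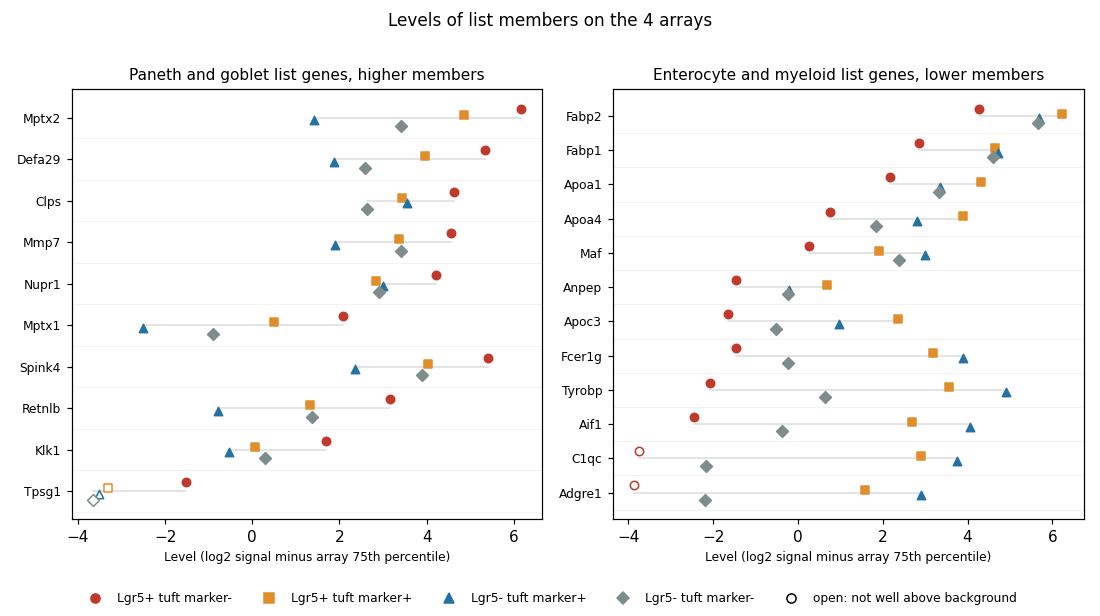
Levels (horizontal axis, log2 signal minus the array's 75th percentile) of the Paneth and goblet list genes that were higher members (left) and of the enterocyte and myeloid list genes that were lower members (right, 1 enterocyte gene not shown), with 1 symbol per array and open symbols where the gene was not well above background. On the left the Lgr5+ tuft marker- array is highest for each gene, from -1.51 for Tpsg1 to 6.16 for Mptx2. On the right it is lowest for each gene, and the enterocyte genes lie closer together on the other arrays than the myeloid genes do.

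Goblet cell genes showed the same direction. All 23 listed genes had a probe, 4 were higher members, none was lower, and 18 lay above every other array. The shares over all genes were 1.12% for higher members and, among those well above background on 4 arrays, 18.5% above every other array. The median difference was 0.69 from the Lgr5+ tuft marker+ array, 2.07 from the Lgr5- tuft marker+ array and 0.87 from the Lgr5- tuft marker- array. Retnlb, the secreted antimicrobial protein RELM-beta, had a level of 3.16 on the Lgr5+ tuft marker- array, against 1.32 on the Lgr5+ tuft marker+, -0.78 on the Lgr5- tuft marker+ and 1.37 on the Lgr5- tuft marker- array, a margin of 1.79 ± 0.20 or 3.45-fold. Spink4, a secreted protease inhibitor of goblet cells, had 5.40, against 4.02, 2.37 and 3.89, a margin of 1.38 ± 0.20. Both were about as bright on the Lgr5+ tuft marker+ as on the Lgr5- tuft marker- array. Tpsg1, a membrane-anchored tryptase, had -1.51 and was not well above background on any other array, a margin of at least 1.79. Muc2, the main gel-forming mucin and a non-member, had 3.60, against 3.0, 1.34 and 2.82. Zg16 and Clca1, goblet products that were non-members, had 5.72 and 3.89 on the Lgr5+ tuft marker- array, and 5.20 and 3.41 on the Lgr5- tuft marker- array, which was the nearest.

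Other secretory lists gave few members. Nkx2-2, a transcription factor of enteroendocrine cells, had -0.09 on the Lgr5+ tuft marker- array, against -1.98, -3.12 and -1.70, a margin of 1.61 ± 0.22. A second Nkx2-2 probe had -3.63 and lay under the floor on the other 3 arrays, so it was too dim to check the call. Of the 30 enteroendocrine genes with a probe, Nkx2-2 was the higher member and Sct the lower one. The shares over all genes were 1.12% for higher and 1.38% for lower members. Of 16 secretory lineage transcription factors none was a member, and 6 of the 14 above background lay above every other array. Of all genes well above background on 4 arrays, 18.5% did. Bhlha15, which drives the secretory machinery, had -1.72 on the Lgr5+ tuft marker- array, against -1.76 on the Lgr5+ tuft marker+ array, and was not well above background on the Lgr5- arrays.

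Glandular kallikreins, a cluster of secreted serine proteases, were a further group among the higher genes. Of 14 Klk1 family genes with a probe, 12 were above background on the Lgr5+ tuft marker- array. Of these 12, 6 were higher members (Klk1, Klk1b3, Klk1b4, Klk1b5, Klk1b16 and Klk1b24), against 1.12% of all genes. Above every other array lay 10 of them, against 18.5% of all genes well above background on 4 arrays. Klk1, tissue kallikrein, had a level of 1.70 on the Lgr5+ tuft marker- array, against 0.07 on the Lgr5+ tuft marker+, -0.53 on the Lgr5- tuft marker+ and 0.29 on the Lgr5- tuft marker- array, a margin of 1.41 ± 0.21. Klk1b24 had 0.19, against -1.25, -1.80 and -1.51. Kallikrein genes are close copies of each other, so their probes may share transcripts. Clps, which encodes the colipase that helps pancreatic lipase act on fat, had 4.62 on the Lgr5+ tuft marker- array, against 3.43, 3.54 and 2.64, a margin of 1.08 ± 0.20.

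Colipase and tissue kallikrein are also made by the exocrine pancreas, and the pancreatic acinar markers are given beside them. Of 13 such markers 12 had a probe, all of which were well above background on the Lgr5+ tuft marker- array, where their summed linear level was 93.2, against 6.65 on the Lgr5+ tuft marker+, 146 on the Lgr5- tuft marker+ and 27.6 on the Lgr5- tuft marker- array. None was a higher member, since the Lgr5- tuft marker+ array was as bright. Prss2, a trypsinogen, had 2.71 on the Lgr5+ tuft marker- array, -3.41 and not well above background on the Lgr5+ tuft marker+ array, 2.80 on the Lgr5- tuft marker+ array and -0.49 on the Lgr5- tuft marker- array. The part of acinar RNA in the levels of Clps and Klk1 was not tested.

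**Figure D4:**
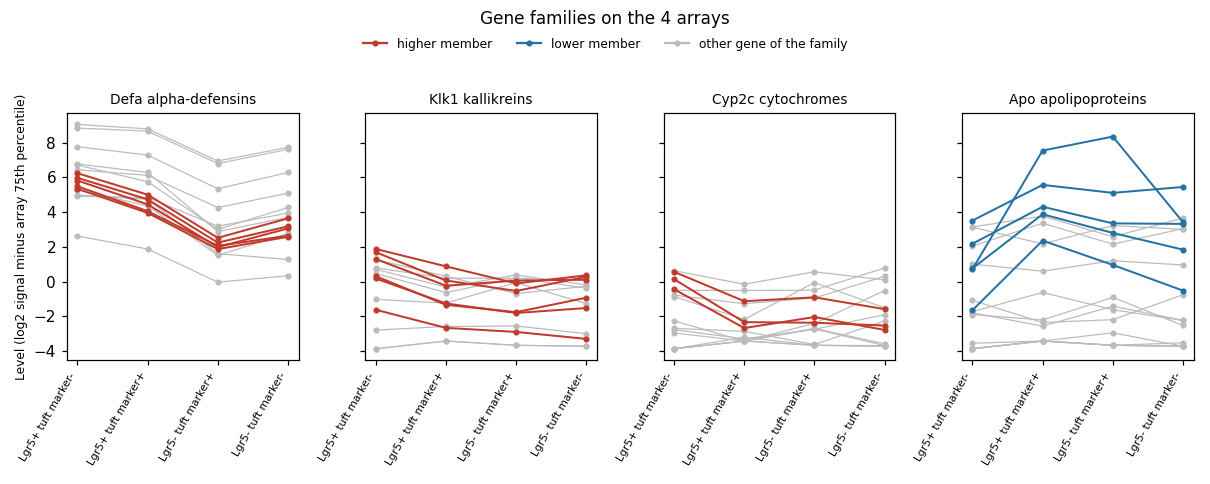
Levels (vertical axis, log2 signal minus the array's 75th percentile) of the Defa, Klk1, Cyp2c and Apo genes with a named probe on the 4 arrays, with 1 line per gene, red for higher members, blue for lower members and grey for the rest. The Defa lines have their low point on the Lgr5- tuft marker+ array, except Defa21, whose low point is on the Lgr5- tuft marker- array, 3 Cyp2c genes stand out on the Lgr5+ tuft marker- array alone, and the 5 Apo genes in blue have their low point there.

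Cyp2c enzymes are cytochromes P450 that oxidise drugs and fatty acids. Cyp2c68 ranked next to the first of the higher members by margin. It had a level of 0.15 on the Lgr5+ tuft marker- array, against -2.33 on the Lgr5+ tuft marker+, -2.36 on the Lgr5- tuft marker+ and -2.52 on the Lgr5- tuft marker- array, a margin of 2.47 ± 0.25 or 5.55-fold. Cyp2c67 had -0.43, against -2.67, -2.03 and -2.77, and Cyp2c69 had 0.57, against -1.12, -0.90 and -1.58. Unlike Mptx1 and Mptx2, these 3 had alike, low levels on the other 3 arrays. The other 8 Cyp2c genes above background on the Lgr5+ tuft marker- array were not members. Cyp2c66 had -0.49 there, against -0.50, -0.48 and 0.79, and Cyp2c38 had 0.64, against -0.14, 0.57 and 0.10.

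Because Cyp2c67, Cyp2c68 and Cyp2c69 are neighbouring copies, their upstream sequences are shown together (RefSeq, GRCm38.p6, minus strand of chromosome 19, written 5′ to 3′ along the gene). The capitals mark CAAAGTCC, the core of the motif bound by HNF4, a nuclear receptor of liver and gut epithelium, searched on both strands. The stretches are chr19:39649114-39649213 for Cyp2c67, chr19:39741125-39741224 for Cyp2c68 and chr19:39886791-39886890 for Cyp2c69.
Cyp2c67: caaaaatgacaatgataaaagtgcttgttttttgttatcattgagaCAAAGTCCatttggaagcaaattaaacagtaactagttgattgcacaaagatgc
Cyp2c68: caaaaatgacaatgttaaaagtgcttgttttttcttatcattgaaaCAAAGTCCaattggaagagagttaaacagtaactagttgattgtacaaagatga
Cyp2c69: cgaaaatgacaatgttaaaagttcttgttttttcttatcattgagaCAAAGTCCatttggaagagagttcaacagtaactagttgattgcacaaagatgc
The capitals start 125, 77 and 75 bases before the annotated gene start in that order. Of 100 positions, 91 to 93 were identical between any pair of the 3 stretches. These stretches lie upstream of the genes, and the sequences that the probes read were not compared. Probes of such close copies may share transcripts, so the 3 genes may not be separate observations, which was not tested.

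The letters were not confined to the higher members of the family. Among 13 Cyp2c genes with a promoter window in the RefSeq table, 7 held CAAAGTCC, the 3 higher members and Cyp2c40, Cyp2c65, Cyp2c66 and Cyp2c70, which were not members. Over all windows of 300 bases, 1.63% of 27025 genes held the letters on either strand. Among the 150 higher members with a window 8 held them (5.33%), the 3 Cyp2c copies included, and among the 159 lower members with a window 1 did (0.629%). The TCF/LEF letters CTTTGAT, whose reverse strand ATCAAAG can overlap CAAAGTCC by 5 bases, were in 2.67% of higher and 3.14% of lower members, against 4.29% of all genes. The PU.1 letters GAGGAAG, the third motif searched, were in 11.3% of higher and 17.0% of lower members, against 15.4% of all genes. A match in a window is a description of its letters.

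The higher genes with the largest margins were mostly dim and of varied function. After 4930571O06Rik, a long non-coding RNA at a level of -0.78 with a margin of at least 2.63, and Cyp2c68 came Smco3 at -0.97 with a margin of at least 2.44 and Tenm2, a teneurin of neural cell contacts, at -1.08 with at least 2.31. Fut1, a fucosyltransferase, had -1.35 with at least 2.06, but the mean of its 2 probes, of which the other lay under the floor on every array, put it at -0.11 from the nearest array. Others were Cfi, the complement factor I protease, with -0.56 on the Lgr5+ tuft marker- array, against -2.88, -3.35 and -2.79. Hand1, a transcription factor of mesoderm, had -1.33 and Cldn6, a tight junction claudin of embryonic epithelia, had -1.30, and both were not well above background elsewhere. Tram1l1, Gm17518, Adam26b, 4930441J16Rik, 8030451O07Rik, Gm36559 and Olfr1263 completed the leading 15, with margins from 2.02 to 2.30, most of them limits. Only Gm17518 and Cyp2c68 of the 15 were well above background on all 4 arrays. The errors of these 15 margins ran from 0.23 for Gm17518 to 1.46 for Adam26b, with 1.46 for Cldn6, Fut1 and Olfr1263 too. Of all 189 higher margins, 161 were over 2 errors. Protein-coding genes were 85.7% of the higher members, against 90.7% of genes measured on the Lgr5+ tuft marker- array, and 26 members were long non-coding RNAs. Olfactory receptor genes, whose probes are mostly near background in this tissue, gave 15 of the 189, or 3.28% of the 458 above background on that array. The share over all genes above background on that array was lower, at 1.12%.

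At the threshold itself, Klk1b5 and Scgb2b20 were just inside on the higher side, each with a margin of 1.001, and B4galnt1 was just outside at 0.997. Elmod2 was just outside by its limit, at least 0.999, since no other array was well above background for it. On the lower side Cys1 and Mrgpra9 were just inside at -1.009 and -1.008, the difference of Mrgpra9 being a limit set by the floor, and Il1r2 and Kalrn were just outside at -0.9997 and -0.997.

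Most lower members followed 1 of 2 patterns. In 92 of the 197 genes the other 3 arrays lay within 1 log2 of each other, so that the Lgr5+ tuft marker- array stood below a flat level. In 70 genes both tuft marker+ arrays were at least 1 log2 above the Lgr5- tuft marker- array as well, and the Lgr5+ tuft marker- array was the lowest end of a wide spread. The other 35 genes met neither description. The nearest array was Lgr5- tuft marker- for 134 genes, Lgr5- tuft marker+ for 34 and Lgr5+ tuft marker+ for 29.

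Enterocyte genes were the epithelial list with the most lower members. Of 33 enterocyte genes with a probe, 8 were lower members and none was higher, where 1.38% of all genes were lower members. Of the 32 above background, 16 lay below every other array, where 21.0% of all genes well above background on 4 arrays did. The median difference of the list was -0.85 from the Lgr5+ tuft marker+ array, -0.34 from the Lgr5- tuft marker+ array and -0.98 from the Lgr5- tuft marker- array. Fabp1, the liver-type fatty acid-binding protein, had 2.85 on the Lgr5+ tuft marker- array, against 4.64 on the Lgr5+ tuft marker+, 4.71 on the Lgr5- tuft marker+ and 4.59 on the Lgr5- tuft marker- array, a margin of -1.74 ± 0.20. Fabp2, the intestinal form, had 4.28, against 6.23, 5.68 and 5.67, a margin of -1.39 ± 0.20. For both binding proteins the other 3 arrays lay within 0.57 of each other. Of the 8 enterocyte members 5 were of the flat pattern, Apoc3 was of the wide one, and Apoa4 and Maf were of neither.

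Apolipoproteins are the protein part of lipid particles, such as those that enterocytes secrete. Genes taken by the Apo name alone, after their values were seen, gave 5 lower members among 13 that could have been called. They were Apoa1, Apoa4, Apoc2, Apoc3 and Apoe, of which Apoe is given with the leukocyte genes below. The share over all genes was 1.38%. Apoa1 had 2.18 on the Lgr5+ tuft marker- array, against 4.32 on the Lgr5+ tuft marker+, 3.36 on the Lgr5- tuft marker+ and 3.33 on the Lgr5- tuft marker- array. Apoa4 had 0.76, against 3.88, 2.81 and 1.85, and Apoc3, an inhibitor of lipoprotein lipase, had -1.64, against 2.37, 0.97 and -0.51. Of its 2 other probes, 1 lay below every other array but by only 0.22 from the nearest, and 1 lay between the other arrays, so its call rests on 1 probe. Apoc2, the activator of the same lipase, had 3.52, against 5.57, 5.11 and 5.45, and was named after its values were seen. Apob, the structural protein of chylomicrons, was not a member and had 3.15, against 3.78, 2.59 and 3.67, so that it was lower still on the Lgr5- tuft marker+ array. Mttp, which loads lipid onto Apob, had 1.97, against 2.82, 1.98 and 3.03.

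Brush border enzymes moved less evenly. Anpep, aminopeptidase N, had -1.46 on the Lgr5+ tuft marker- array, against 0.69, -0.21 and -0.24, a margin of -1.22 ± 0.22. Maf, a transcription factor of enterocytes that macrophages also express, had 0.27, against 1.91, 2.99 and 2.39. Sucrase-isomaltase (Sis) and Mgam were non-members and lay between the other arrays, with 0.08 and 2.14 on the Lgr5+ tuft marker- array and 1.1 and 3.04 on the Lgr5- tuft marker- array. Sct, the hormone secretin of enteroendocrine S cells, had 0.71 on the Lgr5+ tuft marker- array, against 2.73, 2.41 and 2.28, a margin of -1.56 ± 0.20 below 3 arrays that lay within 0.45.

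Macrophage and other myeloid genes were lower too, and the 5 myeloid members all followed the wide pattern. Of 18 myeloid markers, 5 were lower members (Adgre1, Tyrobp, Fcer1g, C1qc and Aif1) and 12 lay below every other array. Over all genes that could have been called, 1.38% were lower members. Of all genes well above background on 4 arrays, 21.0% lay below every other array. The 12 include Adgre1, which was at the floor of the Lgr5+ tuft marker- array and so was counted by construction. The list also holds other markers not well above background on that array, unlike the genes behind the 21.0%, so the shares are not alike. The median difference was -3.08 from the Lgr5+ tuft marker+ array, -3.46 from the Lgr5- tuft marker+ array and -0.45 from the Lgr5- tuft marker- array. Tyrobp, an adaptor of activating receptors, had -2.06 on the Lgr5+ tuft marker- array, against 3.56 on the Lgr5+ tuft marker+, 4.91 on the Lgr5- tuft marker+ and 0.63 on the Lgr5- tuft marker- array, a margin of -2.70 ± 0.23 or 6.48-fold. Aif1, a calcium-binding protein of macrophages, had -2.44, against 2.70, 4.05 and -0.37. Adgre1, which encodes F4/80, was not well above background on the Lgr5+ tuft marker- array at -3.86, and had 1.58, 2.91 and -2.20 on the others. C1qc, a chain of complement C1q, was likewise not well above background there at -3.75, and had 2.90, 3.75 and -2.17.

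Several of the leading 15 lower members are leukocyte genes too. Tlr12, a toll-like receptor of mouse, had the largest margin, at least 3.70 ± 1.20 below the nearest array. It had -3.86 and was not well above background on the Lgr5+ tuft marker- array, against 2.87, 4.50 and -0.15. Apoe, an apolipoprotein that macrophages make in quantity, had 0.71, against 7.55, 8.35 and 3.43, and its other probe also passed the threshold, at 1.86 log2 below the nearest array. Rassf2, a Ras-association domain protein, had -2.36, against 4.24, 4.57 and 0.58. Itgb2, the beta chain of leukocyte integrins, had -1.23, against 4.19, 4.87 and 1.34. Sirpa, Tlr1 and Gngt2 had margins between -2.41 and -2.21, but second probes of Tlr1 and Gngt2 lay only 0.27 and 0.61 below the nearest array. Lilrb4a, Osm, Abi3, Saa3, Procr and Ap1s2 lay below the nearest array by at least 2.22 to 2.90. Another Ap1s2 probe differed by 1.43, -1.29 and 1.73 from the others in the same order, so it was not lowest on the Lgr5+ tuft marker- array. The remaining Ap1s2 probe, under the floor on that array, differed by -0.60, -0.74 and -0.15. Crtap, a collagen-modifying protein, had -2.58, against 1.56, 0.87 and 0.24. In each of these 15 except Crtap and Ap1s2, the Lgr5- tuft marker+ array was the highest.

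Part of the myeloid list was still measured on the Lgr5+ tuft marker- array. Of its 18 genes 12 were well above background there, against 17 on the Lgr5+ tuft marker+, 18 on the Lgr5- tuft marker+ and 15 on the Lgr5- tuft marker- array, with summed linear levels of 548, against 736, 807 and 622. Those sums are set by the Itgam probe, at 8.98, against 9.33, 9.34 and 9.19, and without it they were 41.8, against 91.04, 160 and 39.0. The markers Adgre1, Itgax, C1qa, C1qc, Ms4a7 and S100a8 were not well above background on the Lgr5+ tuft marker- array. Other macrophage markers were. Csf1r, the receptor for the macrophage growth factor, had 4.74, against 4.69, 4.87 and 4.71, alike on every array. Cd68, Cx3cr1 and Mrc1 had 0.61, -0.61 and -1.89, each above the Lgr5- tuft marker- array at 0.34, -1.14 and -3.71 and below the Lgr5- tuft marker+ array. Lyz2, the macrophage lysozyme, was highest here, with 2.61 on the Lgr5+ tuft marker- array, against 2.0, 1.60 and 1.26. The part of white blood cell RNA in the lower members was not tested.

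Tuft cell genes gave 0 members in either direction, since both tuft marker- arrays were low. Their median difference was -2.63 from the Lgr5+ tuft marker+ array, -2.71 from the Lgr5- tuft marker+ array and 0.81 from the Lgr5- tuft marker- array, and 10 of 26 genes measured in that last pair were at least 1 log2 higher on the Lgr5+ tuft marker- array. Trpm5, the taste transduction channel, had 0.88 on the Lgr5+ tuft marker- array, against 4.35, 3.80 and -1.83. Dclk1, a kinase used as a tuft marker, had 0.73, against 4.22, 3.81 and -0.12. Trpm5 and Dclk1 were thus intermediate on the Lgr5+ tuft marker- array. Of the 29 tuft genes above background on any array, 7 lay below every other array there and 1 above. Over all genes well above background on 4 arrays the shares were 21.0% and 18.5%. Ptprc, at the floor there, was counted as below by construction.

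Crypt base stem cell genes also gave 0 members. Of 26 with a probe, the 25 above background had a median difference of 0.18 from the Lgr5+ tuft marker+ array, 0.67 from the Lgr5- tuft marker+ array and 0.36 from the Lgr5- tuft marker- array. Of the 25, 10 lay above every other array, where 18.5% of all genes well above background on 4 arrays did. Igfbp4, a binding protein of insulin-like growth factors, had the lowest median difference of the list, with -1.32 on the Lgr5+ tuft marker- array, against -0.78, -0.33 and 0.36. Of all genes that could have been called, 1.12% were higher members, and among 25 Wnt targets and feedback genes 1 was a member. It was Sox4, a transcription factor of progenitor cells, with 0.51 on the Lgr5+ tuft marker- array, against -0.83 on the Lgr5+ tuft marker+, -1.37 on the Lgr5- tuft marker+ and -0.65 on the Lgr5- tuft marker- array, a margin of 1.16 ± 0.21. Of 20 Notch pathway genes, the ligand gene Dll3 was higher at -2.17 with no other array well above background, and the ligand gene Jag2 was lower, not well above background on the Lgr5+ tuft marker- array and between -2.66 and -2.17 on the others. The shares over all genes were 1.12% for higher and 1.38% for lower members.

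**Figure D5:**
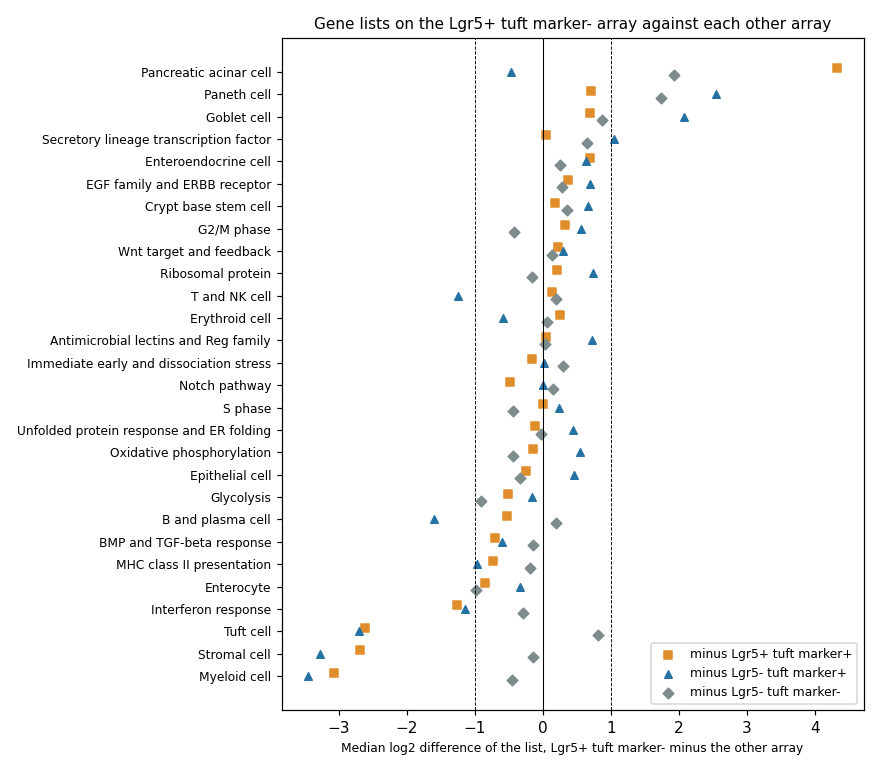
Median log2 difference of each of 28 gene lists on the Lgr5+ tuft marker- array from each of the other 3 arrays (horizontal axis, Lgr5+ tuft marker- minus the other array), with 1 symbol per other array and dashed lines at 1 log2 in either direction. Paneth and goblet lists lie right of 0 for all 3 arrays and the enterocyte, interferon, myeloid and stromal lists left of 0, while the tuft and acinar lists change side with the array compared.

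The remaining lists gave few members or none. Interferon response genes gave 3 lower members of 18 with a probe, and 14 lay below every other array. The shares over all genes were 1.38% and, among those well above background on 4 arrays, 21.0%. Rsad2, the antiviral protein viperin, had -1.44 on the Lgr5+ tuft marker- array, against 1.85, 2.11 and -0.04, but its other probe was 0.25 to 1.24 higher there than on the others. Ifit1, an interferon-induced RNA-binding protein, was not well above background on the Lgr5+ tuft marker- array at -3.77, and had -1.62, -1.25 and -2.16. Gbp2, an interferon-induced GTPase, had -3.64, against -0.42, 0.86 and -2.25. Lgals3, galectin 3, had 2.08, against 3.25, 3.72 and 3.14, and its other probe passed the threshold too. With the authors' table Lgals3 and Col3a1 missed the threshold. Gzmb, Col3a1, Hk1 and Tgfbi were the lower members of the T and NK cell, stromal, glycolysis and transforming growth factor lists. Col3a1, a fibrillar collagen of fibroblasts, had -2.62 on the Lgr5+ tuft marker- array, against 0.57, 3.33 and -1.61. For the stromal list 8 of 14 genes were well above background on the Lgr5+ tuft marker- array, with a summed linear level of 32.6, against 41.9, 64.8 and 42.2. Acta2, smooth muscle actin, sets these sums, and without it they were 1.92, against 12.7, 41.7 and 2.31.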

How the data were processed

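The members, families and 28 gene lists were chosen with earlier results of these data known. Per the file headers, the authors' deposited scanner files hold an intensity per spot, background-subtracted by Agilent Feature Extraction 12.0.3.1 with no scaling between arrays. Version 11.5.1.1 stands in the submitters' processing notes, and which applies was not settled. The authors' deposited table is the same intensity multiplied by 1 constant per array, on a linear scale and not centred by gene. Its column medians were 286 for the Lgr5+ tuft marker- array, against 279 for the Lgr5+ tuft marker+, 365 for the Lgr5- tuft marker+ and 253 for the Lgr5- tuft marker- array, and no label states this scaling. Of 62976 spots per array, control spots and 91 to 122 outlier spots were left out, and no spot was saturated. Levels were log2 minus the 75th percentile, with copies of a probe averaged. Accessions matched a RefSeq table (GRCm38.p6) for 32994 of 56605 probes. A gene was read from its brightest probe; 1 probe above background was enough to count the gene as such. Named were the leading 15 members per direction, every member on a list, the extremes of each list, genes at the threshold and sort markers. Others were chosen after their values were seen. The values of 1 enterocyte list member are not reported here. Promoter windows (RefSeq) were found for 150 of 189 higher and 159 of 197 lower members. Python 3.11.15, pandas 2.3.3 and limma 3.58.1 were used. The member rule was run on simulated data for genes above background on every array, with only the scanner's error as noise. That run does not cover genes missing from an array, or variation between animals, sorts and labelling reactions. The design gives 1 array per population, so no test was made.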

Additional observations from a re-analysis of the deposited data

Results flagged for a closer look

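Signal lay in probes that the comparisons do not use. Of 23611 probes with no gene name here, 246 were at least 1 log2 higher on the Lgr5+ tuft marker- array than on every other array, among 14655 well above background on it. In the other direction 75 such probes were at least 1 log2 lower, among 10754 well above background on the 3 other arrays. No control array exists for these probes, and what they measure was not analysed here.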

How the results depend on the processing

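The counts of 189 higher and 197 lower genes stayed within 1.5 times under 4 other scalings and the mean of all probes. The scalings (median, 75th percentile of detected probes, quantile, the authors' table) gave 156 to 179 higher and 198 to 218 lower. The mean of all probes gave 171 and 165. Leaving out the detection filter gave 189 and 197. The floor, still set by detected probes, was kept there, so that setting could hardly change a call. Scaling to the median moved the median of all genes to -0.12 against the Lgr5+ tuft marker+, 0.14 against the Lgr5- tuft marker+ and -0.15 against the Lgr5- tuft marker- array, and the authors' table moved it to -0.20 against Lgr5- tuft marker+. With normexp, which adds 50 to each spot and so shrinks differences of dim ones, 22 higher and 23 lower genes were left, 20 and 23 of them members. The weaker detection flag, which lowers the floor, gave 400 and 454, and no floor gave 317 higher genes. A threshold of 1.5 log2 left 58 and 67. Requiring all 4 arrays above background, added after seeing the data, left 82 higher genes, and 36.4% of all calls were then higher, against 49.0%. With the mean of all probes, Adgre1, Ap1s2, Apoc3, Fut1, Hk1, Osm, Rsad2, Tenm2 and Tram1l1 were no longer called. Among the 122 named genes, a change of sign was looked for only in the 30 higher and 39 lower members. Of these members Fut1 alone changed sign, to -0.11 with the mean of its probes, and the cause was not tested. Normexp used the median spot signal, since the files used here hold no mean signal. The alternative using the files' own gene names was not run, as the files used here have no such column. No paired analysis was possible because each population had 1 array, and none could be left out. Signal over background is a limit: 107 higher members were not above background on all 4 arrays.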

Other observations

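Glycolysis and cell cycle genes showed shifts that gave almost no members. Of 15 glycolysis genes, 10 lay below every other array on the Lgr5+ tuft marker- array, where 21.0% of all genes well above background on 4 arrays did. The median differences of the list were -0.52 from the Lgr5+ tuft marker+, -0.17 from the Lgr5- tuft marker+ and -0.91 from the Lgr5- tuft marker- array. Hk1, hexokinase 1, was the lower member, with -1.11, against 2.50, 1.92 and 0.09, although its other probe differed by 0.34, -0.20 and 0.06 from the others. Pfkl, a phosphofructokinase, had 1.71 on the Lgr5+ tuft marker- array, against 1.21, 1.23 and 2.26. For the G2/M list the median difference was 0.33, 0.56 and -0.43 in the same order, and Mki67, the proliferation antigen, had 1.66, against 2.04, 1.1 and 2.55. S phase genes differed by a median of 0.00 from the Lgr5+ tuft marker+, 0.23 from the Lgr5- tuft marker+ and -0.44 from the Lgr5- tuft marker- array. MHC class II genes gave 0 members, and 5 of the 8 above background lay below every other array, against 21.0% of all genes well above background on 4 arrays. H2-Eb1, a class II beta chain outside those 5, had 0.64 on the Lgr5+ tuft marker- array, against 2.01, 2.63 and 0.62.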
